A study of Mus musculus with 6 samples.

Results

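The 10 genes of MHC class I antigen presentation described here were followed in HPC, the high-pigmented cells, and LPC, the low-pigmented cells, sorted from B16-F3, a mouse melanoma line. They were taken by gene symbol from a table of 22740 genes, all 10 were found once each, and all 10 passed the filter on low counts, as did 11921 genes in the whole table. H2-K1, H2-D1, H2-Q4 and H2-T23 encode class I heavy chains, B2m the light chain, Tap1, Tap2 and Tapbp the peptide loading machinery, and Psmb8 and Psmb9 subunits of the immunoproteasome. Both groups are unmodified B16-F3 cells, grown in one medium with no agent named. Cells with much (HPC) and with little melanin (LPC) were told apart by how the pigment scatters light, and 3 libraries of each, numbered 1 to 3, were read at transcript 3′ ends. The study compared expression in cells with much melanin and with little. The gates of the sort are not stated. Nothing in the labels ties a number to a culture or a sort, and the p-values therefore cover only the spread among these 6 libraries, which may be technical. Wherever 3 values of a group stand in a row, they follow the numbers 1, 2 and 3.

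Class I molecules show fragments of a cell's own proteins to CD8+ T cells. The proteasome cuts proteins into peptides, and its interferon-inducible subunits replace constitutive ones to form the immunoproteasome. The transporter formed by the TAP proteins carries peptides into the endoplasmic reticulum, where tapasin and other chaperones load them on a heavy chain paired with beta-2 microglobulin. Interferon gamma raises most of these genes through factors that include IRF1 and NLRC5. B16 cells are known for little class I on their surface unless interferon is added.

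The HPC libraries held 18131623 to 22186743 counts and the LPC libraries 14695822 to 18810435. All 7 melanocyte lineage markers checked (Mitf, Sox10, Pmel, Mlana, Dct, Tyrp1 and Tyr) passed the filter. Of 20 immune cell markers in the table, 10 had no count in any library, among them Ptprc, Cd3e and Itgam, and 3 passed the filter (Fcer1g, Lyz2 and Cd68), each with a log2 fold change above 0. Cd68, a lysosomal marker of macrophages named after its values were seen, was at 12.9, 6.95 and 10.2 CPM in the HPC libraries against 2.63, 4.23 and 7.10 CPM in the LPC libraries. DESeq2 called it higher in HPC with the block described below (adjusted p = 0.017), and edgeR did not call it with the block (adjusted p = 0.13) or without it (0.42). The summed level of the immune markers was 10.3 to 18.1 CPM (counts scaled to equal library size with TMM factors) in HPC and 5.53 to 11.5 CPM in LPC libraries. Most of this sum in each HPC library came from Cd68. The median log2 difference of HPC minus LPC over the 3 tested immune markers was 1.16, -0.35 and 0.04 in the pairs numbered 1, 2 and 3. The 3 markers were thus not higher in HPC throughout. For 13 markers of fibroblasts, endothelium and keratinocytes the sum was 19.6 to 28.5 CPM in HPC and 17.7 to 34.3 CPM in LPC libraries, with Cdh5, Kdr, Krt5, Krt10 and Krt14 at 0. Of these, 3 were tested, and Pdgfra was lower in HPC with the block (edgeR, log2 fold change -1.11, adjusted p = 0.045, against 0.34 without it, 0.38 without the libraries numbered 2 and 0.17 without those numbered 3). Col1a2, also named after its values were seen, had a log2 fold change of 0.62 with the block (edgeR adjusted p = 0.26) and Col1a1 one of -0.29 (0.54). The part of other cell types in the members' levels was not tested.

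Of the members, 9 lie on chromosome 17, and B2m lies on chromosome 2 (GRCm38, GENCODE M21). Psmb9 (34181987 to 34187764, minus strand), Tap1 (34187553 to 34197225, plus), Psmb8 (34197721 to 34201454, plus) and Tap2 (34203527 to 34216321, plus) follow one another on chromosome 17. H2-K1 (33996017 to 34000347, minus) and Tapbp (33915899 to 33929292, plus) lie before them. H2-D1 (35262730 to 35267499, plus), H2-Q4 (35379617 to 35385290, plus) and H2-T23 (36029773 to 36032855, minus) lie after them, and B2m runs from 122147686 to 122153083 on the plus strand of its chromosome. All are protein-coding genes.

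RefSeq promoter windows on GRCm38.p6, from 250 bases before to 50 after a gene's start, were at hand for 9 of the 10 members. They are shown because the heavy chain genes described first share several matches at similar spacing. The following 4 lines give, 5′ to 3′, the part of the windows of the heavy chain genes H2-K1 (chr17:34000349-34000468, minus strand), H2-D1 (chr17:35262913-35263032, plus), H2-Q4 (chr17:35379433-35379552, plus) and H2-M3 (chr17:37270094-37270212, plus), a further class I gene outside the 10. Capitals mark matches on either strand to AANNGAAA (the core bound by IRF factors), an NF-kB-like site, the core of a cAMP response element (TGACG) and a CCAAT box.
H2-K1: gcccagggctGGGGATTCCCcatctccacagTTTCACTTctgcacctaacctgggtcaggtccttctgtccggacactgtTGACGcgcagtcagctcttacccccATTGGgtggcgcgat
H2-D1: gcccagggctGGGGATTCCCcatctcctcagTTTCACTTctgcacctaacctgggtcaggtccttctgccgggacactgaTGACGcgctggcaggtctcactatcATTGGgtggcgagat
H2-Q4: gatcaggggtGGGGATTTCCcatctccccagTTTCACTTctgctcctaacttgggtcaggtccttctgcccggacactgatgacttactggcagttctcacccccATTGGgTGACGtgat
H2-M3: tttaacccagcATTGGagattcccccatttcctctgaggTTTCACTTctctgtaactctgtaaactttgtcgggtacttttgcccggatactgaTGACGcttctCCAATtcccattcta
H2-K1, H2-D1 and H2-Q4 each held 1 match to the NF-kB-like site, which 0.715% of all 32851 promoter windows held, and 1 match to the IRF core, which 23.9% held. The motifs were chosen after these promoters had been read, and the stretches of these genes resemble one another. The shares therefore do not measure enrichment. The response element core was in 20.8% and the CCAAT box, read as ATTGG, in 37.4% of all windows. The response element core stands before the ATTGG of the printed stretch in H2-K1 and H2-D1. In H2-Q4 it stands after it, so the spacing of this match is not shared by H2-Q4. H2-M3 had a match to the IRF core and none to the NF-kB-like site. The printed stretch of H2-M3 was placed by its IRF core match, since it lacks the other site.

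Tap1 and Psmb9 are read in opposite directions from RefSeq starts 226 bases apart, so that 1 window (chr17:34187306-34187605, plus strand of Tap1) covers both starts. Psmb8, which had the greatest fold difference between HPC and LPC among the 10, held none of the 4 motifs in its window (chr17:34197945-34198244, plus strand). This window, and those of Psmb9, Tapbp and H2-D1, lie within the spans of these genes in GENCODE M21. The bases before the GENCODE starts of these genes were not searched. The absence of these letters from the Psmb8 window says nothing about which factors act on the gene.
Tap1 and Psmb9: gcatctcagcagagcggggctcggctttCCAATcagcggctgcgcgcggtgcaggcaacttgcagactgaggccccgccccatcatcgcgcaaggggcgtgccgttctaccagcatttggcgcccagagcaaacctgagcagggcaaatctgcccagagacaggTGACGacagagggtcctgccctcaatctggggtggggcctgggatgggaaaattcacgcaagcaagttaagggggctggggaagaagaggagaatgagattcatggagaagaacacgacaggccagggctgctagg
Psmb8: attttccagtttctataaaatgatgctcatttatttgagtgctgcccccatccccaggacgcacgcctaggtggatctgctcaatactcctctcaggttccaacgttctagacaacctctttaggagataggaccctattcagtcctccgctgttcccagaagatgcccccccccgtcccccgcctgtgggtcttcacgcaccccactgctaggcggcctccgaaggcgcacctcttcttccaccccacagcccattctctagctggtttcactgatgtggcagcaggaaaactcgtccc
The windows of B2m and H2-T23 also held matches to the IRF core (1 and 2), and those of Tapbp, Tap1, Psmb9 and Psmb8 held none.

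With group as the only term, none of the 10 passed the test between HPC and LPC, and in a fit blocked by replicate number, H2-K1, H2-Q4, Tap2 and Psmb8 were lower in HPC and none was higher. These 4 come from the heavy chains, the peptide transporter and the immunoproteasome. Of the same parts, H2-D1, H2-T23, Tap1 and Psmb9 were not called in that fit. The block lets each number have its own level, and was used because equally numbered libraries deviated from their group means together. HPC 2 and LPC 1 also did so, less closely. It called 4 of 10 members lower in HPC, where 1.1% of all genes tested were called lower, 1.43% higher and 2.52% in either direction (edgeR quasi-likelihood test, adjusted p under 0.05). Without the block edgeR called 0 of the 10, against 0.0419% of all genes, and 4 had an unadjusted p under 0.05, namely H2-Q4, Tap2, Psmb8 and Psmb9, all lower in HPC, where 4.31% of all genes had such a p and were lower, and 9.37% had one in either direction. In the blocked fit 18.8% of all genes had an unadjusted p under 0.05, as had 5 of the 10, each of them lower in HPC. Unblocked DESeq2 called Tap2 and Psmb8 (0.856% of all genes were called lower, 1.88% in either direction), with the block the same 4 as edgeR (1.55% of all genes lower, 4.19% in either direction), and limma-voom called 0. The median log2 fold change of the members was -0.53 without the block and -0.52 with it, against -0.0091 and -0.0060 for all genes. In bulk RNA, fewer cells that express a gene and less RNA per cell cannot be told apart.

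**Figure D1:**
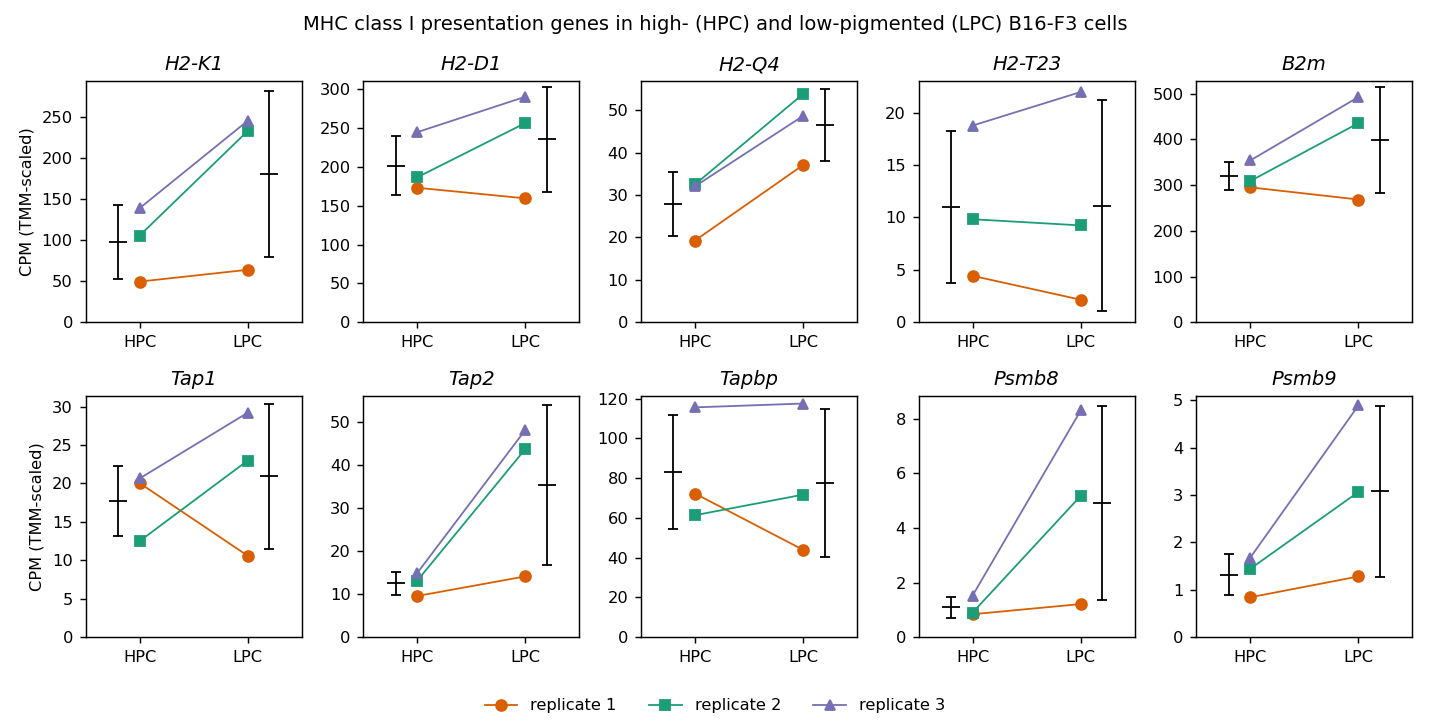
Level of each member (CPM, TMM-scaled, linear axis from 0) in the 6 libraries, HPC on the left and LPC on the right of each panel. Colours, symbols and lines join libraries of equal replicate number, and black bars are mean ± SD over 3 libraries. For Tap2 and Psmb8 the LPC libraries 2 and 3 stand far above the rest, while LPC 1 lies near the HPC libraries.

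H2-K1 encodes a classical heavy chain, the kind that presents peptides to CD8+ T cells. It was at 49.7, 106 and 139 CPM in the HPC libraries against 64.1, 233 and 246 CPM in the LPC libraries. Each HPC library lay below the LPC library of its number, but the groups overlapped, since LPC 1 stood below HPC 2 and HPC 3. The means were 98.2 ± 45.2 CPM over HPC libraries and 181 ± 101 CPM over LPC libraries (SD, n = 3 each). H2-K1 was lower in HPC by 1.72-fold in the blocked fit (edgeR, log2 fold change -0.79, SE 0.14, adjusted p = 0.041) and did not pass without it (log2 fold change -0.88, SE 0.51, adjusted p = 0.68).

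H2-D1, the other classical heavy chain gene here, was at 173, 187 and 245 CPM in the HPC libraries against 159, 256 and 290 CPM in the LPC libraries. The groups overlapped, and LPC 1 was the lowest of the 6 libraries. Its log2 fold change with the block was -0.20 (SE 0.12, edgeR adjusted p = 0.43). Whether the change of H2-D1 differs from that of H2-K1 was not tested.

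H2-Q4 belongs to the Q region of class I genes. It was at 19.3, 32.5 and 32.0 CPM in the HPC libraries against 37.0, 53.8 and 48.6 CPM in the LPC libraries. It was the only member whose groups did not overlap, with all HPC libraries below all LPC libraries, as for 7.18% of all genes in that direction, 7.16% in the other and 14.3% in all. H2-Q4 averaged 27.9 ± 7.50 CPM over HPC libraries and 46.5 ± 8.57 CPM over LPC libraries (SD, n = 3 each), and was lower in HPC by 1.69-fold in the blocked fit (edgeR, log2 fold change -0.75, SE 0.11, adjusted p = 0.023, against 0.34 without it). H2-Q4 overlaps Gm11131 on the opposite strand.

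H2-T23 encodes Qa-1, a nonclassical molecule that is read by inhibitory receptors of NK cells. It was at 4.44, 9.83 and 18.8 CPM in the HPC libraries against 2.16, 9.24 and 21.96 CPM in the LPC libraries. The libraries sorted by number rather than by group, and the log2 difference of HPC minus LPC was 1.00, 0.09 and -0.23 in the pairs numbered 1, 2 and 3. The fit gave -0.01 (SE 0.73, edgeR adjusted p = 1.00) without the block and 0.17 (SE 0.22, edgeR adjusted p = 0.74) with it.

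Heavy chain genes resemble one another and carry repeats, and several members overlap other genes, so that reads may be split or shared. Of the stretches of 50 bases in the last 300 bases of their coding transcripts in GENCODE M21, 5.39% in H2-K1, 17.1% in H2-D1, 45.4% in H2-Q4 and 50.6% in H2-T23 also occur in a transcript of another gene. The other genes include class I genes for H2-K1, H2-D1 and H2-T23. For B2m, Tap1, Tap2, Tapbp, Psmb8 and Psmb9 none was shared. Tapbp overlaps Zbtb22 on its own strand and Gm19412 on the opposite one. On the opposite strand Tap2 overlaps Gm20496 and Gm15821, Psmb8 overlaps Gm20496, B2m overlaps Patl2 and H2-T23 overlaps A930015D03Rik. The part of these overlaps in the counts was not tested.

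B2m encodes the light chain that pairs with class I heavy chains. It was at 295, 309 and 354 CPM in the HPC libraries against 268, 435 and 492 CPM in the LPC libraries. In number 1 the HPC library was the higher, and in numbers 2 and 3 the LPC library was. The log2 fold change was -0.32 (SE 0.21, edgeR adjusted p = 0.71) without the block and -0.28 (SE 0.14, edgeR adjusted p = 0.32) with it.

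Tap2, a subunit of the peptide transporter, was at 9.60, 13.2 and 14.9 CPM in the HPC libraries against 14.2, 43.8 and 48.3 CPM in the LPC libraries. The HPC libraries were close together, while LPC 1 lay among them and LPC 2 and 3 stood well above. Tap2 averaged 12.6 ± 2.72 CPM over HPC libraries and 35.4 ± 18.5 CPM over LPC libraries (SD, n = 3 each). It was lower in HPC by 2.59-fold in the blocked fit (edgeR, log2 fold change -1.37, SE 0.22, adjusted p = 0.029) and 2.82-fold lower without it, where edgeR gave an adjusted p of 0.29 and DESeq2 one of 0.012. Without LPC replicate 1 it passed without the block as well (log2 fold change -1.87, edgeR adjusted p = 0.038).

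Tap1, the partner of Tap2 in the transporter, was at 20.04, 12.5 and 20.6 CPM in the HPC libraries against 10.6, 22.98 and 29.2 CPM in the LPC libraries. The log2 difference was 0.91 in the pair numbered 1, and -0.87 and -0.50 in the pairs numbered 2 and 3, so the pairs disagreed in sign. The log2 fold change of Tap1 was -0.24 (SE 0.35, edgeR adjusted p = 0.89) without the block and -0.19 (SE 0.30, adjusted p = 0.79) with it. Tap1 and Psmb9 overlap on opposite strands, at their 5′ ends.

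Tapbp encodes tapasin, which holds empty class I molecules at the transporter. It was at 72.3, 61.4 and 116 CPM in the HPC libraries against 44.0, 71.7 and 118 CPM in the LPC libraries. Replicate 3 was the highest in both groups, and the groups overlapped throughout. The log2 fold change was 0.10 (SE 0.35, edgeR adjusted p = 0.97) without the block and 0.15 (SE 0.17, edgeR adjusted p = 0.70) with it.

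Psmb8, which encodes the chymotrypsin-like immunoproteasome subunit, was at 0.842, 0.902 and 1.53 CPM in the HPC libraries against 1.21, 5.18 and 8.30 CPM in the LPC libraries. These levels rest on 15, 20 and 30 counts in HPC and on 18, 98 and 124 counts in LPC, so counting error is part of the spread. LPC 2 and 3 stood apart from the other libraries, and LPC 1 lay between HPC 2 and HPC 3. Psmb8 was lower in HPC by 4.12-fold in the blocked fit (edgeR, log2 fold change -2.04, SE 0.38, adjusted p = 0.042, against 0.31 without it), and passed without it in DESeq2 (adjusted p = 0.033).

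Psmb9, which encodes the inducible subunit that takes the place of Psmb6, was at 0.842, 1.44 and 1.68 CPM in the HPC libraries against 1.28, 3.06 and 4.89 CPM in the LPC libraries, from 15 to 73 counts per library. Each HPC library lay below the LPC library of its number, and LPC 1 below HPC 2 and 3. Its log2 fold change was -1.15 with the block (SE 0.28), which did not pass with edgeR (adjusted p = 0.086), and -1.21 without it (SE 0.49, edgeR adjusted p = 0.51).

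Of the members, 5 were lower in HPC in all 3 pairs of equal number, namely H2-K1, H2-Q4, Tap2, Psmb8 and Psmb9, as were 21.3% of all genes. The 4 calls rest on few libraries. Without the pair numbered 2 the block called 0 of the 10, and 0 of all 11927 genes tested. The edgeR adjusted p was then 0.34 for H2-K1, 0.25 for H2-Q4, 0.29 for Tap2 and 0.38 for Psmb8. Their log2 fold changes were -0.60, -0.77, -1.16 and -1.74. Without the pair numbered 3, H2-K1 (edgeR adjusted p = 0.069) and Psmb8 (0.14) no longer passed, where 196 of 11929 genes were called. Without the pair numbered 1 the block called 8 of the 10, all but H2-T23 and Tapbp, and 2947 of 12018 genes. With 1 residual degree of freedom in each of these fits, the p-values carry little weight. The pair numbered 1 had the smallest difference for H2-K1, Tap2, Psmb8 and Psmb9 and the greatest for H2-Q4. The log2 difference of Psmb8 was -0.48 in that pair, and -2.38 and -2.36 in the pairs numbered 2 and 3, and that of Tap2 was -0.56, -1.73 and -1.68. With 1 library of each group per number, whether the difference between HPC and LPC varies with the number could not be tested.

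**Figure D2:**
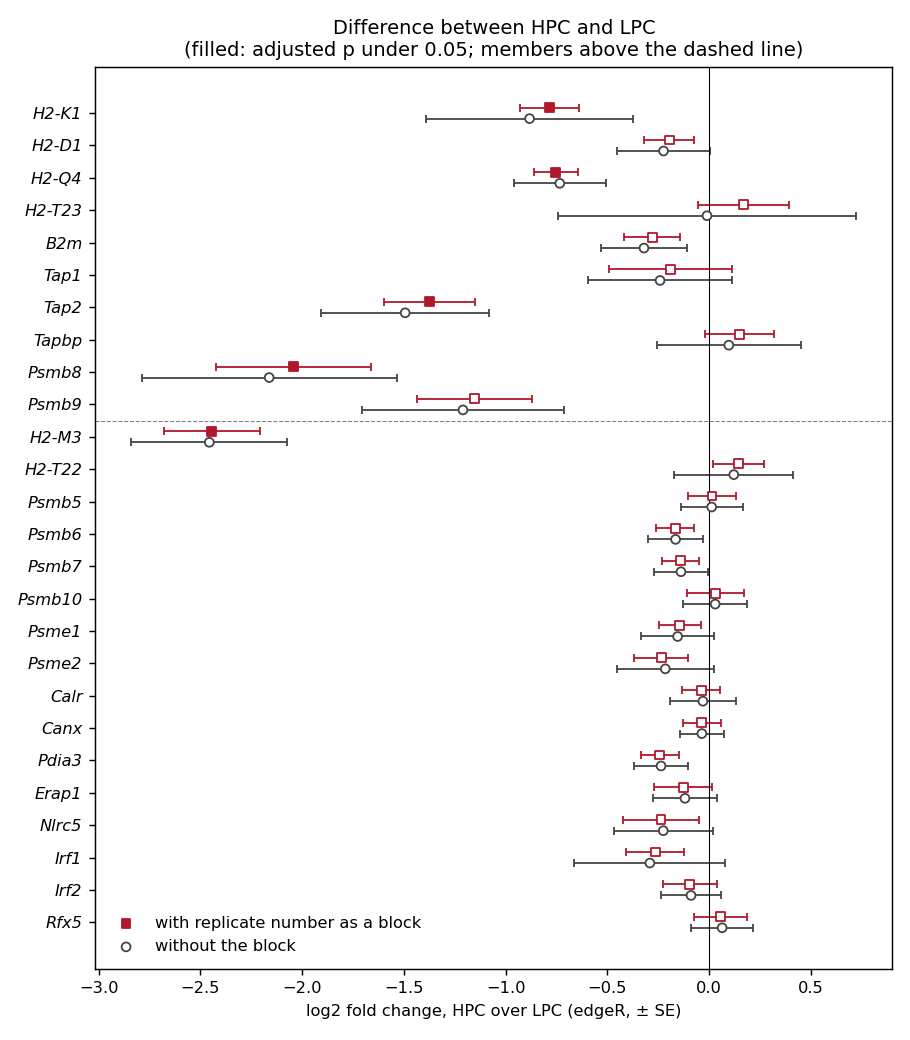
Log2 fold changes of HPC over LPC (horizontal axis, bars are SE) for the 10 members, above the dashed line, and for 16 further genes of the pathway. Red squares are from the blocked fit and grey circles from the fit without it, and filled symbols mark an adjusted p under 0.05. H2-K1, H2-Q4, Tap2, Psmb8 and H2-M3 are filled with the block, and no symbol is filled without it.

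Other genes of the pathway were taken from lists. Of 22 heavy chain and class I-like genes listed, 19 were in the table and 8 were tested, 4 of them members. H2-M3, which presents bacterial peptides that begin with N-formylmethionine, was at 0.842, 1.49 and 1.12 CPM in the HPC libraries against 3.64, 8.03 and 7.43 CPM in the LPC libraries. The groups did not overlap, and H2-M3 was lower in HPC by 5.45-fold in the blocked fit (edgeR, log2 fold change -2.45, SE 0.24, adjusted p = 0.0077, against 0.11 without it). It also passed in DESeq2 without the block (adjusted p = 5.0e-06). It no longer passed in the blocked edgeR fit once the libraries numbered 2 were left out (adjusted p = 0.12, log2 fold change -2.45), where 0 genes were called. H2-T22, of the T region near H2-T23, was at 26.5 ± 7.34 CPM over HPC libraries and 24.4 ± 8.57 CPM over LPC libraries (log2 fold change 0.14 with the block, edgeR adjusted p = 0.60). The remaining tested genes of this list, named after their values were seen, were Mr1 and Cd1d1. Mr1 was higher in HPC in each pair of equal number (log2 fold change 0.27 with the block, edgeR adjusted p = 0.20). Cd1d1 had a log2 fold change of 0.08 (0.92). The median of the list with the block was -0.058. H2-Q7 had 1 count in HPC and 1 in LPC over all libraries and was not tested.

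Among 11 genes of peptide loading and trimming, Tap2 was the only one called with the block by edgeR (2.52% of all genes). DESeq2 with the block also called Lnpep, a peptide trimming enzyme named after its values were seen, which was higher in HPC (log2 fold change 0.52, adjusted p = 0.027, against 0.11 by edgeR with the block) and whose groups did not overlap. Calr, Canx and Pdia3 encode chaperones that fold and load heavy chains, and none passed. Calr averaged 1016 ± 192 CPM over HPC libraries and 1038 ± 135 CPM over LPC libraries, Canx 1113 ± 59.4 CPM over HPC libraries and 1142 ± 68.0 CPM over LPC libraries, and Pdia3, which works beside tapasin, 637 ± 88.8 CPM over HPC libraries and 751 ± 59.0 CPM over LPC libraries (SD, n = 3 each). Their log2 fold changes with the block were -0.04, -0.04 and -0.24, with SEs of 0.09 each. The peptide trimming enzyme Erap1 was at 19.7 ± 3.24 CPM over HPC libraries and 21.4 ± 1.41 CPM over LPC libraries (log2 fold change -0.13, SE 0.14, edgeR adjusted p = 0.69).

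Among 11 proteasome genes, Psmb8 alone was called with the block by edgeR (2.52% of all genes). The constitutive subunits that Psmb8, Psmb9 and Psmb10 replace are Psmb5, Psmb6 and Psmb7. Their log2 fold changes with the block were 0.01 for Psmb5 (SE 0.12), -0.17 for Psmb6 (SE 0.09) and -0.14 for Psmb7 (SE 0.09), and none passed with edgeR. Psmb10, the third immunoproteasome subunit, was at 12.2 ± 0.721 CPM over HPC libraries and 11.9 ± 1.21 CPM over LPC libraries, with a log2 fold change of 0.03 (SE 0.14, edgeR adjusted p = 0.94). The activator genes Psme1 and Psme2 were at -0.14 (SE 0.10) and -0.24 (SE 0.13) and did not pass. Whether Psmb8 changed more than its constitutive counterpart Psmb5 was not tested.

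Of 12 tested regulators of class I genes, none was called between HPC and LPC by edgeR with or without the block, where an unadjusted p under 0.05 was reached by 1 in the unblocked fit (9.37% of all genes) and by 1 in the blocked fit (18.8% of all genes). DESeq2 called 0 in either fit, and limma-voom 0. Nlrc5, the class I transactivator, was at 7.86, 5.68 and 4.88 CPM in the HPC libraries against 8.10, 6.02 and 7.43 CPM in the LPC libraries, with a log2 fold change of -0.24 (SE 0.18, edgeR adjusted p = 0.54) with the block. Irf1, an interferon-induced activator, was at 24.6 ± 9.90 CPM over HPC libraries and 30.2 ± 13.9 CPM over LPC libraries (log2 fold change -0.27, SE 0.14, edgeR adjusted p = 0.36 with the block). For Irf2 and Rfx5 the log2 fold changes with the block were -0.10 and 0.05, with edgeR adjusted p of 0.75 and 0.87.

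Of 9 tested ligands that T or NK cells read, 7 had a log2 fold change above 0, the median was 0.49, and none was called by edgeR in either fit. Of all genes, 48.2% had a log2 fold change above 0. An unadjusted p under 0.05 was reached by 3 of the 9 in the unblocked fit (9.37% of all genes) and by 3 in the blocked fit (18.8% of all genes). DESeq2 called 1 without the block (1.88% of all genes, either direction) and 1 with it (4.19%), both higher in HPC, and limma-voom 0. For 3 of the 9 the groups did not overlap and HPC was higher, as for 7.16% of all genes. Cd274, which encodes PD-L1 and was fixed by name, had the opposite sign to most of the list. It was at 33.2 ± 8.21 CPM over HPC libraries and 38.3 ± 16.2 CPM over LPC libraries (log2 fold change -0.16, SE 0.13, edgeR adjusted p = 0.57 with the block). Of 33 tested interferon response genes, edgeR called 1 with the block, where it called 2.52% of all genes. This was Cxcl10, a chemokine that attracts T cells. Cxcl10 was at 1.96, 1.44 and 1.68 CPM in the HPC libraries against 3.91, 8.13 and 6.96 CPM in the LPC libraries, and was 3.67-fold lower in HPC (edgeR, log2 fold change -1.88, SE 0.30, adjusted p = 0.029 with the block, 0.13 without it). It no longer passed once the libraries numbered 2 were left out (edgeR adjusted p = 0.29, log2 fold change -1.54), where 0 genes were called. The median log2 fold change of the interferon list with the block was 0.03.

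H2-K1 and H2-T23 also differed among the replicate numbers. Replicate 1 was the lowest of its group in both HPC and LPC for 8 of the 10 members, all but Tap1 and Tapbp, and for 16.7% of all genes tested. In a fit with group as a term, edgeR called H2-K1 and H2-T23 as different among the numbers, 2 of 10, where 3.18% of all genes were called. All members but Tap1 had an unadjusted p under 0.05, as did 25.3% of all genes. DESeq2's likelihood ratio test called 6 of 10, namely H2-K1, H2-D1, H2-Q4, H2-T23, Tap2 and Tapbp, where it called 7.83% of all genes.

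H2-K1 was 2.78-fold higher in number 2 and 3.25-fold higher in number 3 than in number 1 (edgeR, both terms together, adjusted p = 0.013). H2-T23 was 2.88-fold and 6.16-fold higher (edgeR adjusted p = 0.013). Neither passed without HPC replicate 2 (edgeR adjusted p = 0.055 for H2-K1 and 0.066 for H2-T23) or without LPC replicate 2 (0.081 and 0.087). In those fits 0 of 12067 and 0 of 12020 genes were called. All 10 passed without HPC replicate 1 and 7 without LPC replicate 1, in fits with 1 residual degree of freedom. These fits called 5266 of 12090 and 4319 of 12095 genes. Among the 7, number 2 was below number 1 for Tap1 and Tapbp, with log2 differences of -0.57 and -0.18, whereas without HPC replicate 1 these were 1.02 and 0.65. The medians over the 10 members were 0.84 for number 2 over 1 and 1.11 for number 3 over 1 on the log2 scale, against -0.0049 and -0.0045 for all genes.

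Irf1, Cd274 and H2-T22 also differed among the numbers. Irf1 was at 18.4, 19.4 and 36.0 CPM in the HPC libraries against 17.1, 28.7 and 44.7 CPM in the LPC libraries, with replicate 3 the highest in both groups. It was 2.25-fold higher in number 3 than in number 1 (edgeR adjusted p = 0.033), Cd274 was 1.92-fold (0.046) and H2-T22 was 1.89-fold higher (0.0495). Nlrc5 did not pass, at 0.758-fold in number 3 over number 1 (edgeR adjusted p = 0.34). Of the 33 interferon response genes 18 were called among the numbers by edgeR, where 3.18% of all genes were. The share of mitochondrial counts was 3.21%, 2.22% and 2.07% in the HPC libraries against 2.46%, 2.36% and 2.56% in the LPC libraries, so the LPC libraries did not share the order that HPC had. The part of library quality in the members' levels was not tested.

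**Figure D3:**
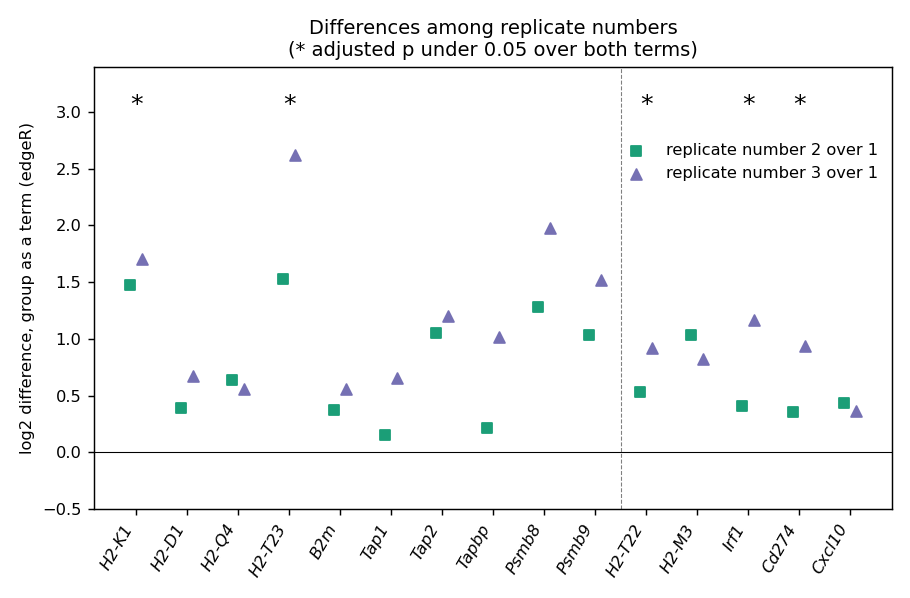
Log2 difference of replicate number 2 over 1 (squares) and 3 over 1 (triangles) from the edgeR fit with group as a term, for the 10 members, left of the dashed line, and 5 related genes. An asterisk marks an adjusted p under 0.05 for both terms together. All points of these 15 genes lie above 0, and asterisks stand over H2-K1, H2-T23, H2-T22, Irf1 and Cd274.

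Averaged over the 10 members, the log2 level relative to each gene's mean was -0.67, -0.33 and 0.13 in the HPC libraries against -0.67, 0.57 and 0.97 in the LPC libraries. The replicate 1 libraries of both groups thus stood lowest and level with each other, and LPC 2 and 3 highest. The summed level of the members was 645, 733 and 943 CPM in the HPC libraries against 602.5, 1135 and 1307 CPM in the LPC libraries. Psmb9 lay nearest to this mean profile, with a root mean square difference of 0.26 on the log2 scale over the 6 libraries, and H2-T23 farthest, at 0.74.

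The 5 genes outside the members whose profile lay nearest to the mean over the 6 libraries, among genes with a mean of at least 5 CPM, were Ddah2, Trim30a, Ssh3, Trnp1 and Mgat3, with root mean square differences of 0.06, 0.15, 0.15, 0.17 and 0.17. Ddah2, which encodes an enzyme of methylarginine breakdown, was at 13.1, 17.9 and 23.9 CPM in the HPC libraries against 14.2, 35.9 and 44.2 CPM in the LPC libraries. It lies on chromosome 17 from 35059035 to 35062095, between Tap2 and H2-D1. Its log2 fold change with the block was -0.69 (SE 0.18, edgeR adjusted p = 0.094, DESeq2 adjusted p = 0.022). Since Ddah2 was picked for its profile over these libraries, these p-values are not an independent test. Trim30a belongs to the TRIM family of ubiquitin ligases, Ssh3 encodes a cofilin phosphatase and Mgat3 a glycosyltransferase.

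**Figure D4:**
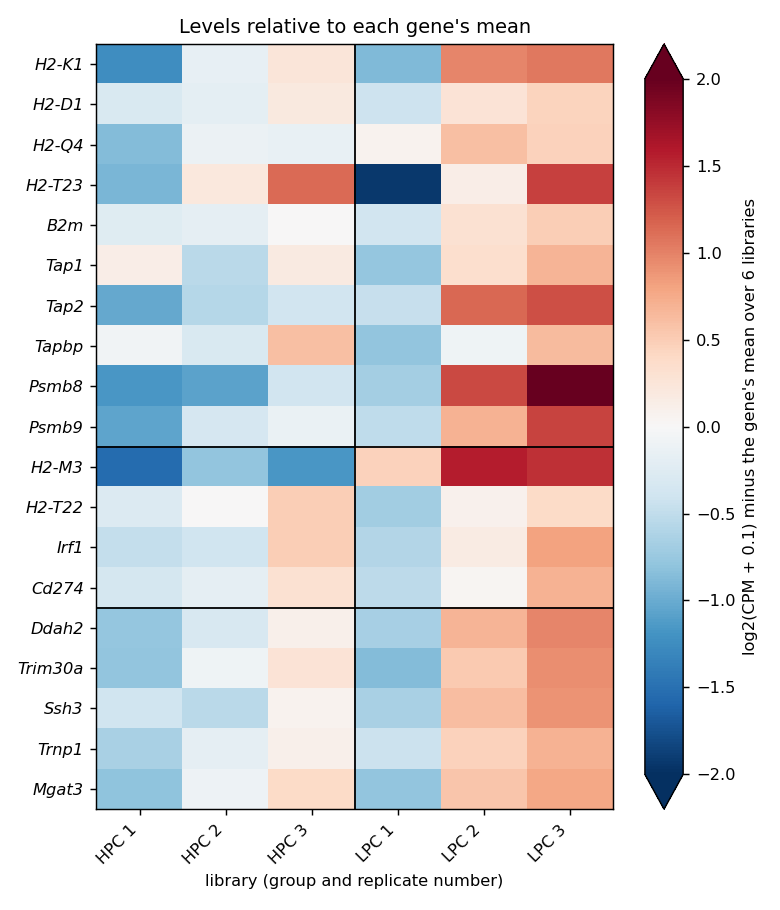
Log2(CPM + 0.1) of each gene minus its mean over the 6 libraries, in colour (red above, blue below the mean, clipped at 2), with HPC libraries left and LPC libraries right of the vertical line. The 10 members stand above the first horizontal line, 4 related genes below it, and below the second line the 5 genes of most similar profile. Columns HPC 1 and LPC 1 are mostly blue, and LPC 2 and LPC 3 mostly red.

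Tyr encodes tyrosinase, the enzyme that begins melanin synthesis. Its level was 908, 855 and 994 CPM in the HPC libraries against 261, 62.2 and 238 CPM in the LPC libraries. No relation between Tyr and the members was tested.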

How the data were processed

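Expression was measured in 6 libraries of B16-F3 cells, 3 HPC and 3 LPC. Per the labels' protocols, the kit was Lexogen's QuantSeq 3′ FWD, applied to total RNA, and the sequencer a NextSeq 500, and per the submitters' processing notes STAR and GRCm38 were used. Neither the counter, its strand setting and annotation, nor any molecular identifiers are stated there, so reads of overlapping genes on opposite strands may not be told apart. The authors deposited raw counts in 1 table, with no normalization. Counts at 3′ ends do not scale with transcript length, and no levels were compared between genes.

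Genes were filtered with filterByExpr and scaled with TMM in edgeR 4.0.16 (limma 3.58.1, DESeq2 1.42.0, R 4.3.3). HPC was tested against LPC by the quasi-likelihood F-test of edgeR with group as the only term (4 residual degrees of freedom), adjusted by Benjamini-Hochberg over all 11921 genes. SEs come from the F statistic. Differences among replicate numbers were tested with both number terms together in a fit with group, and fits were tested on simulated data first. All pairs of libraries differed by more than sampling noise (chi-square per degree of freedom of at least 25.9).

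The groups share replicate numbers, and deviations from the group means correlated by 0.425, 0.353 and 0.651 across genes for numbers 1, 2 and 3, all above the minimum of 0.1. HPC 2 and LPC 1, of unequal number, also passed this minimum, at 0.204. The other unequal pairs had negative correlations. The pairing thus comes from the data, not from the labels. Blocked values (2 residual degrees of freedom) are given for most named genes, for some of them without the unblocked value. Deviations of 3 libraries cancel out, which makes this check weak.

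The named genes are the 10 members, 19 pathway genes fixed by name, up to 3 further called genes of each of 10 lists, and 5 genes of similar profile. A further gene of the rule is not reported here and was left out of the lists. The members and lists were chosen with earlier results of these data known, and the promoter motifs after the promoters had been read as well. Of the table's gene identifiers, 96.4% were found in GENCODE M21, which gave the locations.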

Additional observations from a re-analysis of the deposited data

How the results depend on the processing

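Scaling by RLE, upper quartile or library size alone left the number of members called between HPC and LPC at 0 without the block, and moved the median log2 fold change of all genes by less than 0.1. The number of genes called, 5, was 301 with the replicate block (members, 4), 224 with DESeq2 (members, 2), 500 with DESeq2 and the block (members, 4) and 28 with no filter (members, 0). Leaving out a library without the block gave 0 to 43 genes and 0 to 1 members. With the block, leaving out pair 1, 2 or 3 gave 2947, 0 and 196 genes and 8, 0 and 2 members. Among the replicate numbers, 379 genes and 2 members were called. This was 1029 and 7 with no filter, 933 and 6 with DESeq2, and 0 to 5266 and 0 to 10 without 1 library. The cause of these shifts was not tested, except that fits without a pair, or without a library in the number test, have 1 residual degree of freedom.

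Of 595 log2 fold changes (35 genes, 17 alternatives each), 506 kept the sign and side of the threshold of the unblocked edgeR fit. Of the others, 52 passed only in the alternative, and 37 changed sign against that fit. None of the sign changes was in a gene called lower in HPC with the block. H2-T23 became positive with the block (0.17), with DESeq2 and the block (0.23), with limma-voom (0.30) and with no filter (0.0091). Psmb10 (-0.0028) and Psmb5 (-0.020) became negative with upper quartile scaling, and Psmb5 (-0.0074) with library size alone. With the block and without pair 1, the sign differed from the unblocked fit for Tapbp (-0.11), Rfx5 (-0.083), Psmb10 (-0.060), Psmb5 (-0.086) and Erap1 (0.041). Without pair 2 it differed for H2-T23 (0.24), Tap1 (0.18) and Irf2 (0.041), and without pair 3 for H2-T23 (0.48). Against the blocked fit of all libraries (0.17), H2-T23 changed sign only without pair 1 (-0.074). Without the block and 1 library, log2 fold changes ran from -0.63 to 0.93 for H2-T23, from -0.56 to 0.070 for Tap1, from -0.22 to 0.52 for Tapbp, from -0.67 to 0.10 for Irf1, from -0.15 to 0.017 for Irf2, from -0.014 to 0.19 for Rfx5, from -0.026 to 0.13 for Psmb10, from -0.057 to 0.14 for Psmb5, from -0.18 to 0.085 for Calr, from -0.085 to 0.0058 for Canx, from -0.13 to 0.36 for H2-T22 and from -0.45 to 0.17 for Cd274. The low counts of Psmb8 and Psmb9 limit what their levels show.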
